A study of Macaca fascicularis with 20 samples.

Results

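The cortical plate (CP), the layer where young cortical neurons settle, was compared between area 17 and area 18 of the fetal macaque neocortex by small RNA sequencing. The comparison rests on 4 of the 14 libraries whose count columns could be matched to labels, of 20 labelled samples. Its groups are CP_17 and CP_18, with 1 library each at embryonic day 80 (set 1) and 1 each at embryonic day 79 (set 2). The third labelled set, at embryonic day 82, is not analysed here. All libraries came from developing brain of Macaca fascicularis, and the labels name no treatment, genotype or transgene. Pieces were cut from sections with a UV laser, and how the areas and layers were recognised is not given in the sources used here. The sources do not say whether CP_17 and CP_18 of a set share an animal, so an error of a test measures the spread between these libraries, which may be technical.

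Area 17 is the primary visual (striate) cortex, which receives the main thalamic input of the visual system, and area 18 borders it and receives much of its input from area 17. A miRNA is cut from a hairpin precursor, and either arm of the hairpin, the 5p or the 3p arm, can be loaded into the silencing complex, where its seed bases select target mRNAs. Arms of 1 hairpin and hairpins of 1 transcript are made together, but they can accumulate to different levels. Neuronal miRNAs such as miR-124, miR-137 and miR-138 increase as neurons leave the cell cycle and mature, whereas miR-17 family members and miR-92b are known from dividing progenitors. Each arm was therefore treated as a feature of its own.

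The 4 CP libraries held between 5924092 and 7606636 counts over the names present in both tables. Levels are CPM scaled by the trimmed mean of M-values (TMM-scaled CPM), whose sum differs between libraries because each has its own scaling factor. Arms that averaged 100 CPM or more over the 4 libraries were taken as arms of high counts. There were 171 of them among 1139 tested, and they held 99.2% of the CP counts. The neuronal miRNAs miR-137-3p (means of 813 CPM in CP and 24.5 CPM in the ventricular zone) and miR-138-5p (4033 and 326 CPM) and the progenitor miRNA miR-92b-3p (786 and 38823 CPM) lay on the sides that the label CP implies. For miR-92b this side was known beforehand from earlier results of these libraries. Among miR-17 family members, miR-17-5p was higher in CP (11018 CPM) than in the ventricular zone (7061 CPM). Near even were miR-93-5p (1351 and 1549 CPM) and miR-106b-5p (1418 and 1577 CPM). A defining neuronal miRNA was nearly without counts. The 3p arm of miR-124 had 13, 11, 0 and 19 counts in CP_17 and CP_18 of set 1 and CP_17 and CP_18 of set 2, and miR-124-5p had 0, 0, 0 and 2. Another neuronal miRNA, miR-128, was not among the names shared by both sets. Whether the tissue or the counting of reads lies behind these gaps was not tested.

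Before any area difference is read, the sets themselves stood apart in some abundant arms. The p53-regulated miR-34a-5p was at 11157 and 24581 CPM in set 1 but at 122 and 62.2 CPM in set 2, area 17 first. For miR-130b, the 5p arm made up 11.4% and 5.08% of the hairpin's counts in set 1 and 91.6% and 90.9% in set 2, so the main arm was not the same in both sets. Area ratios were for this reason taken within a set, as the log2 ratio of CP_17 over CP_18 with 1 CPM added to each value.

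At the median, area 17 and area 18 of the CP differed about as much as libraries of the same area did between sets. Over the 171 arms, the median size of the log2 ratio between areas was 0.45 in set 1 and 0.42 in set 2, or 1.37-fold and 1.34-fold. Between sets within an area it was 0.49 in area 17 and 0.43 in area 18, or 1.41-fold and 1.35-fold. A ratio of more than 1 on the log2 scale between areas was seen for 30 arms in set 1 and 35 arms in set 2. Between sets, a ratio of that size was seen for 45 arms in area 17 and 22 in area 18. Across arms, which are not independent and share the same 4 libraries and scaling, the ratios of set 1 and set 2 correlated with r = 0.46 (Pearson) and rho = 0.41 (Spearman).

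An arm was described as higher or lower in area 17 where the log2 ratio was at least 0.5 (1.41-fold) in the same direction in both sets, and as level where it was at most 0.3 (1.23-fold) in size in both. By these limits 95 of all 1139 tested arms (8.34%) were higher and 140 (12.3%) lower. Of the 171 arms of high counts, 16 were higher (9.36%), 18 were lower (10.5%) and 36 were level (21.1%), while 101 met none of them. At any size, 61 arms (35.7%) were higher and 52 (30.4%) lower in area 17 in both sets, and 58 had opposite directions. Levels of both areas did not overlap, with both area 17 libraries above both of area 18, for 44 arms (25.7%), and with both below for 28 arms (16.4%). The higher arms lay between means of 113 and 1743 CPM and the lower arms between 101 and 52944 CPM. Just inside the limit were miR-1246-5p (0.51 as the smaller ratio) and miR-148b-3p (-0.53), and just outside it let-7i-5p (0.49) and miR-126-3p (-0.48).

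The split between directions depended on the scaling. It was 16 higher and 18 lower with TMM, 21 and 13 with DESeq2 size factors, 18 and 14 with TMM over the 4 CP libraries, and 14 and 21 with library totals, where the arms of high counts were selected anew from each scaling's own CPM. Over the 171 arms selected with TMM, these scalings placed the median ratio at 0.090 and 0.015 (TMM, set 1 and set 2), 0.10 and 0.13 (DESeq2), 0.078 and 0.12 (TMM over CP) and -0.24 and 0.17 (totals). With the TMM ratios centred on their median in each set, 13 arms were higher and 22 lower. With these same 171 arms held fixed, all 16 higher and all 18 lower arms kept their direction in both sets under the 4 scalings, and 10 of the 16 and 15 of the 18 also kept a ratio of at least 0.5 in both sets.

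**Figure D1:**
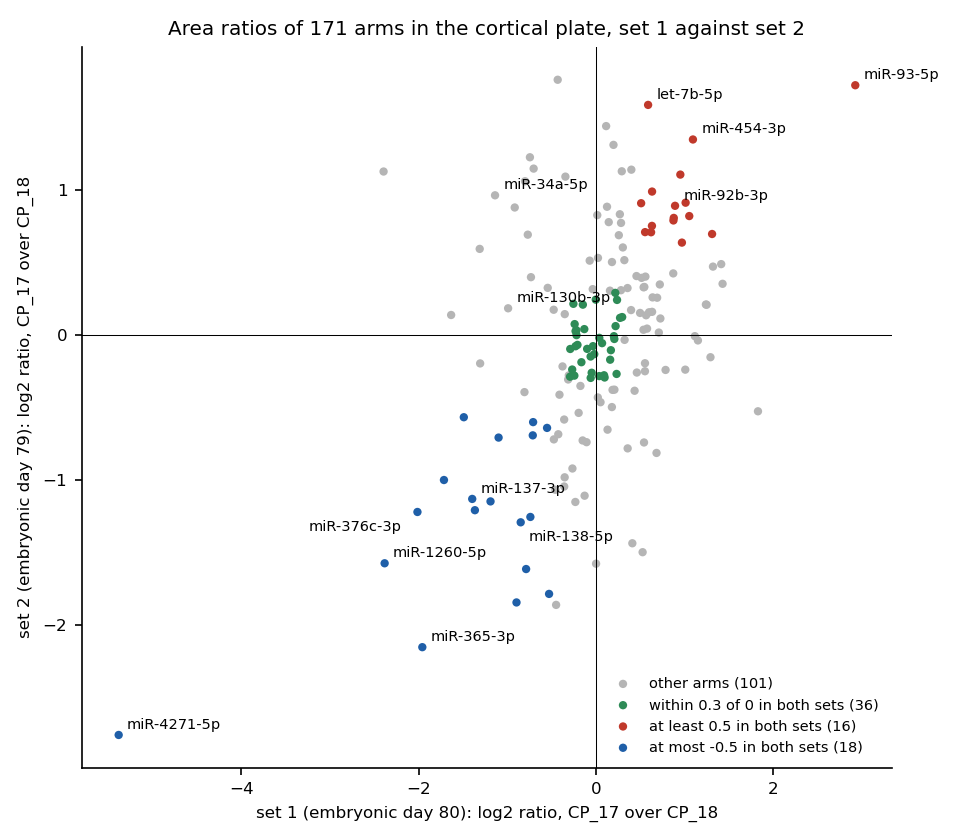
Log2 ratio of CP_17 over CP_18 in set 1 (horizontal axis) and set 2 (vertical axis) for the 171 arms that averaged 100 CPM or more, TMM-scaled, 1 point per arm. The 16 arms at the upper right and the 18 at the lower left differed by at least 0.5 in the same direction in both sets, and the 36 points around the origin were level.

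By the smaller of its ratios in both sets, miR-93-5p led the arms higher in area 17. It is a miR-17 family member made from an intron of the replication gene MCM7 together with miR-106b and miR-25, and it was at 2920.2 CPM in area 17 against 384 CPM in area 18 in set 1 and 1611 against 488 CPM in set 2. Both area 17 libraries lay above both area 18 libraries, with log2 ratios of 2.92 and 1.72. From the same transcript, miR-106b-3p was at 586 CPM in area 17 against 282 CPM in area 18 in set 1 and 414 against 234 CPM in set 2 (log2 ratios 1.05 and 0.82), and miR-25-3p was at 3065 CPM in area 17 against 1228 CPM in area 18 in set 1 and 2207 against 1594 CPM in set 2 (1.32 and 0.47). The partner arm miR-93-3p had ratios of 0.54 and 0.33, and miR-106b-5p was level, at 1269 CPM in area 17 against 1187 CPM in area 18 in set 1 and 1445 against 1773 CPM in set 2. Ratios between arms of 1 library do not depend on the scaling. There were 2.3 and 1.12 counts of miR-93-5p per count of miR-106b-5p in area 17 and 0.323 and 0.275 in area 18. This moved by 2.83 and 2.02 on the log2 scale. Area ratios within this 1 transcript were thus unequal in both sets, with miR-93-5p taken up because its own ratios were large.

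Next by the smaller of both ratios came miR-454-3p, a relative of miR-130 and miR-301, at 781 CPM in area 17 against 366 CPM in area 18 in set 1 and 421 against 165 CPM in set 2. The 3p arm of miR-197 was at 2729 CPM in area 17 against 1411 CPM in area 18 in set 1 and 1933 against 899 CPM in set 2. Log2 ratios were 1.09 and 1.35 for the former and 0.95 and 1.10 for the latter, and in each case the area 18 libraries were the lower ones. The progenitor miRNA miR-92b-3p had 1081 and 961 CPM in area 17 and 583 and 518 CPM in area 18 (set 1 before set 2), with equal ratios of 0.89 and 0.89. For the arm listed as miR-92-3p, whose reads may be shared with other miR-92 hairpins, the ratios were 1.01 and 0.91, and its levels overlapped between areas. Both arms of miR-423 were higher, with 0.87 and 0.79 for miR-423-3p and 0.97 and 0.64 for miR-423-5p, and their proportion to each other moved by only -0.10 and 0.15. The remaining arms among the 12 named were miR-574-3p (0.88 and 0.81), miR-99b-3p (1.31 and 0.69), miR-1306-5p (0.63 and 0.99) and miR-1249-3p (0.63 and 0.75). Past the same limit but not among the 12 were let-7b-5p (0.59 and 1.58), miR-30a-3p (0.62 and 0.71), miR-331-5p (0.55 and 0.71) and miR-1246-5p (0.51 and 0.91).

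In the other direction, miR-4271-5p came first by the same measure. Its counts were 39 in CP_17 and 1878 in CP_18 of set 1 and 90 and 618 in set 2, or log2 ratios of -5.38 and -2.76. Its mean passed 100 CPM through CP_18 of set 1 (416 CPM). A steadier size was seen for miR-365-3p, at 101 CPM in area 17 against 398 CPM in area 18 in set 1 and 120.1 against 538.7 CPM in set 2. Its ratios were -1.96 and -2.16, and both area 17 libraries were below both of area 18. The miR-193b hairpin lies beside a miR-365 hairpin in the genome, and miR-193b-3p was lower as well (-1.49 and -0.57), at 126 CPM in area 17 against 356 CPM in area 18 in set 1 and 267 against 397 CPM in set 2. The arm listed as miR-1260-5p was at 122 CPM in area 17 against 644 CPM in area 18 in set 1 and 171 against 513 CPM in set 2, with ratios of -2.38 and -1.58.

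Several arms of neuronal miRNAs were lower in area 17. The 3p arm of miR-137, a regulator of neuronal maturation and dendrites, was at 509 CPM in area 17 against 1343 CPM in area 18 in set 1 and 438 against 962 CPM in set 2 (-1.40 and -1.13). The 5p arm of miR-138, which limits dendritic spine size, was at 3351 CPM in area 17 against 6041 CPM in area 18 in set 1 and 1952 against 4789 CPM in set 2 (-0.85 and -1.29). For neither arm did the levels of both areas overlap. Also lower were miR-95-3p (-1.19 and -1.15), and miR-153-3p, from introns of the secretory granule genes PTPRN and PTPRN2 (-0.79 and -1.62). The ratio of miR-92b-3p to miR-137-3p counts was 2.12 and 2.19 in area 17 and 0.434 and 0.539 in area 18. This pair was chosen after its values were seen.

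The endothelial miRNA miR-126, from an intron of EGFL7, had a 5p arm among the lower ones. miR-126-5p was at 412.3 CPM in area 17 against 1065 CPM in area 18 in set 1 and 484 against 1122 CPM in set 2 (-1.37 and -1.21), and miR-126-3p, just short of the limit, had ratios of -0.48 and -0.72 and overlapping levels. From the imprinted miR-379/410 cluster, miR-376c-3p was at 130.2 CPM in area 17 against 529 CPM in area 18 in set 1 and 399 against 932 CPM in set 2 (-2.01 and -1.22) and miR-495-3p had ratios of -0.74 and -1.26 with overlapping levels. The other arms among the 12 were miR-181b-3p (-1.72 and -1.0026) and miR-424-5p, a miR-15/16 family member (-0.90 and -1.85). Past the same limit but not among the 12 were miR-101-3p (-1.10 and -0.71), miR-135b-5p (-0.71 and -0.69), miR-140-5p (-0.71 and -0.60), miR-148b-3p (-0.53 and -1.79) and miR-99a-5p.

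**Figure D2:**
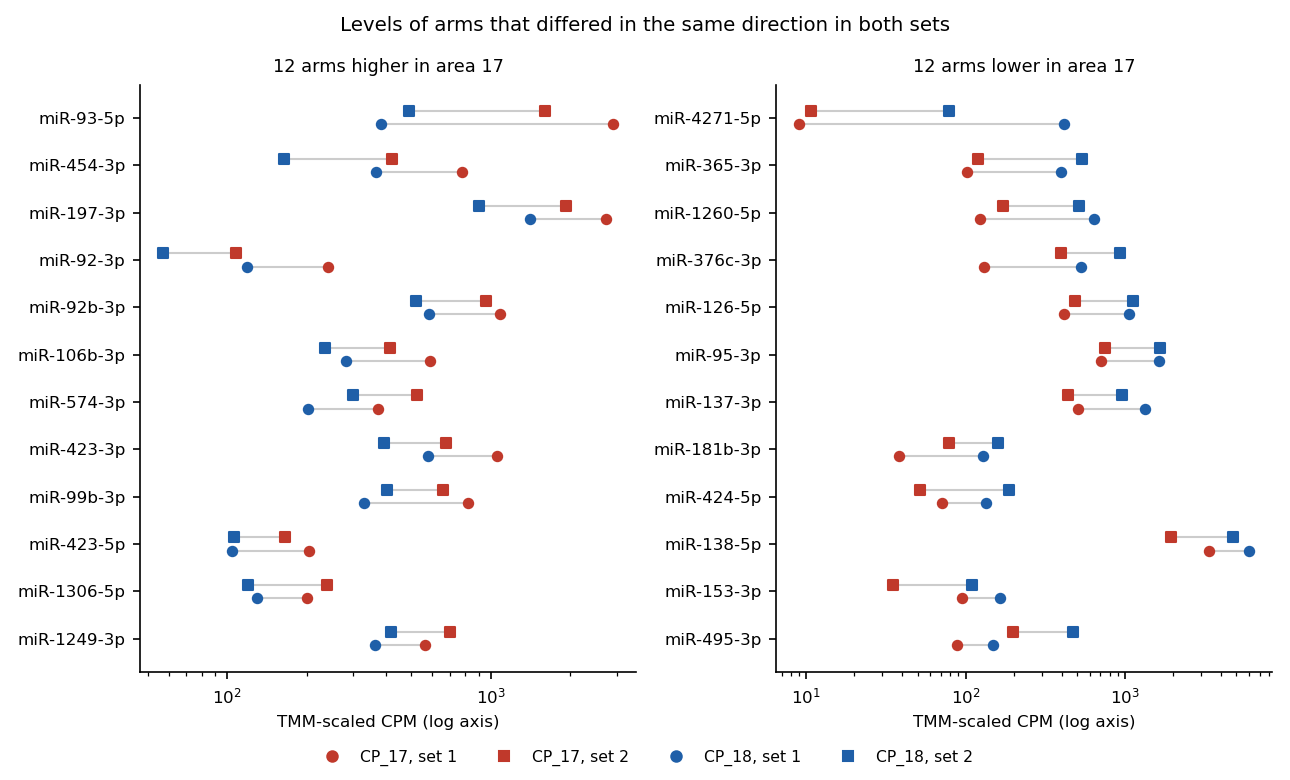
TMM-scaled CPM (log axis) of the 12 arms higher and the 12 arms lower in area 17 with the largest smaller-of-both ratios, with circles for set 1, squares for set 2 and a grey line joining the areas of a set. In each row the red CP_17 points lie on the same side of the blue CP_18 point of their own set, and across sets the areas overlapped only for miR-92-3p and miR-495-3p.

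By edgeR on all libraries, none of these differences passed. With its quasi-likelihood test on all 14 libraries and the set as a block, 0 of 1139 arms (0.0%) had an adjusted p under 0.05, and 36 (3.16%) had an unadjusted p under 0.05. The smallest adjusted p were 0.122 for miR-4271-5p (-4.77 ± 1.09, log2 difference ± SE), 0.16 for the epithelial miR-205-5p (-4.94 ± 1.22), 0.265 for miR-93-5p (2.39 ± 0.64) and 0.378 for both miR-1260-5p (-2.03 ± 0.58) and miR-365-3p (-2.06 ± 0.60). Single libraries weighed on the first and the second of these. The fitted difference of miR-4271-5p was -2.59 without CP_18 replicate 1, and that of miR-205-5p was -9.61 when CP_17 of set 1 was left out and -2.93 when CP_18 of set 2 was. The counts of miR-205-5p were 81, 405, 0 and 203 in CP_17 and CP_18 of set 1 and then of set 2. For miR-92b-3p and miR-138-5p the fit gave 0.89 ± 0.51 and -1.09 ± 0.50. With 2 libraries against 2 and the set left aside, an exact two-sided permutation test of a single arm cannot give a p below 0.333. Exchanges within sets allow fewer arrangements still.

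The number of calls changed with the libraries in the fit and with the method. With only the 4 CP libraries in the fit (block kept, 1 residual degree of freedom, an infinite prior estimate), 18 of 710 arms were called, 7 higher and 11 lower in area 17. Of these, 5 were among the 16 higher arms (let-7b-5p, miR-197-3p, miR-454-3p, miR-93-5p and miR-99b-3p) and 7 among the 18 lower arms (miR-126-5p, miR-1260-5p, miR-137-3p, miR-365-3p, miR-376c-3p, miR-4271-5p and miR-95-3p). The other 6 had means under 100 CPM. Because the 16 and 18 arms were chosen on ratios of the same 4 libraries, this overlap is no independent support. The median biological coefficient of variation of the 171 arms was 31.5% in that fit and 47.9% in the fit with all libraries. DESeq2 on all 14 libraries called 8 arms, out of those to which it gave an adjusted p, and had 75 at an unadjusted p under 0.05. Called were miR-1307-3p, miR-2116-5p, miR-296-3p and miR-92b-5p as higher and miR-205-5p, miR-365-3p, miR-4271-5p and miR-605-5p as lower.

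Of the 14 most abundant arms, those with a mean over 10000 CPM, 8 were higher and 1 was lower in area 17 in both sets, and 5 had opposite directions. miR-125b-5p, which took between 40.2% and 49.3% of the counts of a CP library, was at 814012 CPM in area 17 against 591840.0 CPM in area 18 in set 1 and 348089 against 417175 CPM in set 2 (0.46 and -0.26). miR-9-5p, a brain miRNA that promotes neurogenesis, had ratios of 0.55 and -0.25, let-7f-5p of 0.54 and -0.74, miR-130b-3p of -0.99 and 0.18 and miR-26a-5p of 0.17 and -0.11. The arm over 10000 CPM that met the limit of 0.5 in both sets was miR-99a-5p, at 41938 CPM in area 17 against 61519.6 CPM in area 18 in set 1 and 42282 against 66036 CPM in set 2. It was lower in area 17, with ratios of -0.55 and -0.64, and its levels did not overlap. Its near relative miR-100-5p had -0.41 and -0.41. miR-191-5p (0.87 and 0.42), miR-16-5p (0.69 and 0.25), miR-139-5p (0.64 and 0.26) and miR-149-5p (0.60 and 0.15) were higher in both sets at a size below the limit in at least 1. So were miR-125a-5p (0.71 and 0.01), miR-342-3p (0.50 and 0.15), miR-130b-5p (0.28 and 0.31) and miR-17-5p (0.22 and 0.06).

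Level arms included miR-26a-5p, at 41016 CPM in area 17 against 36527 CPM in area 18 in set 1 and 34503 against 37163 CPM in set 2, and miR-17-5p, the lead member of the proliferation-linked miR-17 cluster, at 9074 CPM in area 17 against 7789 CPM in area 18 in set 1 and 13883 against 13326 CPM in set 2. miR-331-3p (-0.22 and -0.0033), miR-484-5p (0.29 and 0.12), miR-99b-5p (-0.26 and 0.21), miR-30d-5p (-0.29 and -0.10) and miR-340-3p (0.09 and -0.28) followed by abundance. The other named ones were miR-195-5p (0.04 and -0.29), miR-185-5p (-0.10 and -0.10), miR-218-5p (-0.27 and -0.24), miR-15a-5p (0.20 and -0.01) and miR-106b-5p (0.10 and -0.30). The fitted difference was 0.03 ± 0.55 for miR-26a-5p and -0.10 ± 0.50 for miR-185-5p. An SE of this size covers differences of more than the limit of 0.5, so these arms are level within the sets and not shown to be equal. Of the 36 level arms, 12 stayed within 0.3 in both sets under all 4 scalings.

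**Figure D3:**
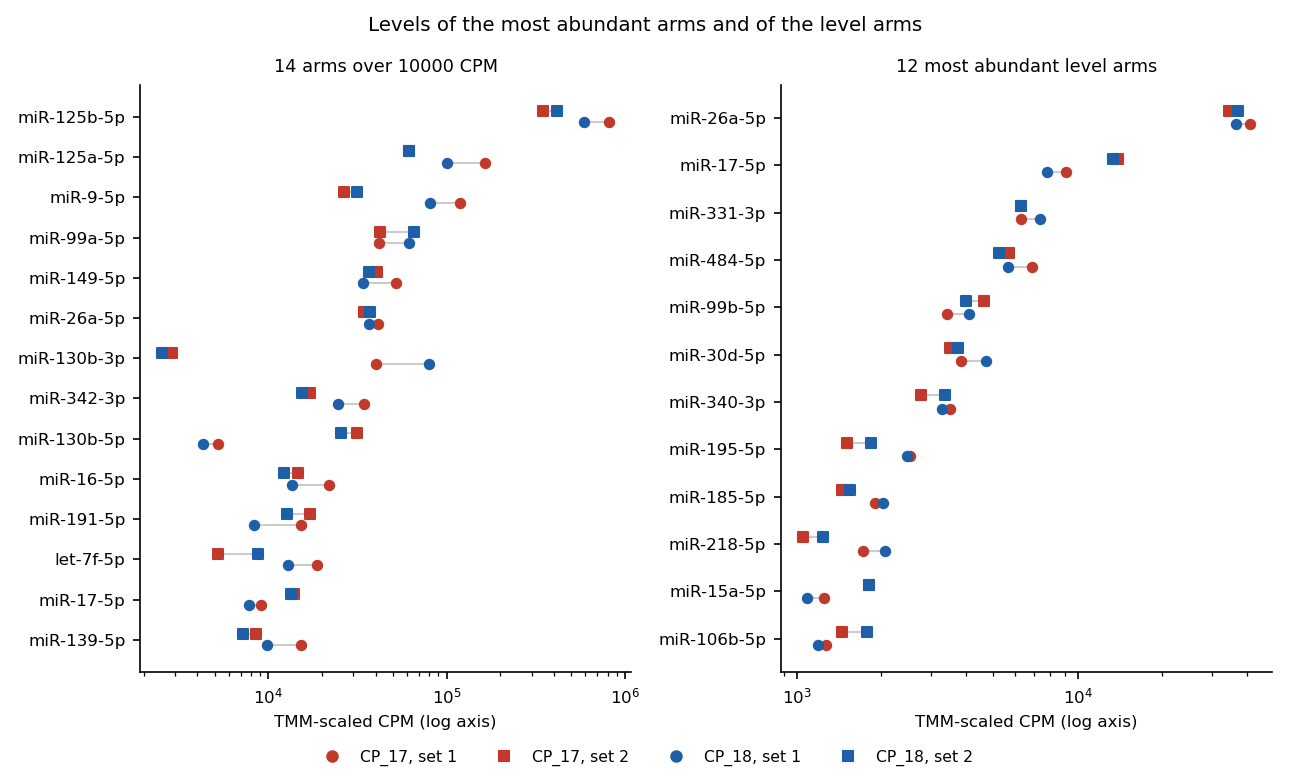
TMM-scaled CPM (log axis) of the 14 arms over 10000 CPM (left) and the 12 most abundant level arms (right), with circles for set 1 and squares for set 2. On the left the distance between circles and squares is often as wide as that between areas, and wider for miR-9-5p and miR-130b-3p. On the right the areas of a set lie close together.

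Lists of miRNAs were described by their arms of high counts, beside a median fitted difference of 0.0084 over all 171 such arms, of which 35.7% were higher and 30.4% lower in both sets. Both arms of a hairpin count separately here, as for miR-7, miR-129, miR-132 and miR-138 in the neuronal list and miR-221 in the germinal zone list. In the neuronal list, 12 of 19 tested arms had high counts. Of these 9 were lower and 1 higher in area 17 in both sets, 3 were lower by the limit of 0.5 (miR-138-5p, miR-137-3p and miR-153-3p), and the median was -0.42. Under all 4 scalings 8 kept the lower direction. miR-139-5p, from an intron of the phosphodiesterase gene PDE2A, was the higher one, at 15287 CPM in area 17 against 9826 CPM in area 18 in set 1 and 8581 against 7179.9 CPM in set 2. miR-129-3p, from a brain-enriched family, had ratios of -0.46 and -1.07. The activity-regulated miR-132-3p was near even (-0.03 and -0.08), and so was the motor neuron miRNA miR-218-5p (-0.27 and -0.24). The summed level of the list was 24908 and 16728 CPM in area 17 against 23999.9 and 21103 CPM in area 18, set 1 before set 2. This sum had no single direction with this scaling, with DESeq2 size factors (log2 ratios 0.068 and -0.22) or with TMM over CP (0.042 and -0.23). With library totals alone it was lower in area 17 in both sets (-0.28 and -0.18). That scaling placed the median ratio of the 171 arms at -0.24 and 0.17.

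The germinal zone list, whose members were known from earlier results of these libraries to be high in the ventricular zone, pointed the other way. Of its 6 arms of high counts 5 were higher in area 17 in both sets under all 4 scalings and 0 were lower, with a median of 0.76. miR-221-3p, which represses the cell cycle inhibitor p27, was at 17422 CPM in area 17 against 7380.2 CPM in area 18 in set 1 and 7619 against 6595 CPM in set 2, and the hypoxia-induced miR-210-3p had ratios of 1.43 and 0.35. miR-222-3p had opposite directions (1.01 and -0.24), and miR-887-3p, under 100 CPM, was near even (-0.03 and 0.08). Over all 16 tested arms the sums were 21511 and 10295 CPM in area 17 against 9573 and 8565 CPM in area 18. In bulk tissue, fewer cells of a type and less RNA per cell cannot be told apart. What part the amount of neighbouring layers in a piece had in these differences was not tested.

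In the imprinted miR-379/410 cluster, a large group of hairpins expressed from the maternal allele and active in neurons, all 7 of its 61 tested arms that had high counts were lower in area 17 in both sets under the 4 scalings. Their median was -0.70, and miR-376c-3p and miR-495-3p were past the limit. miR-487b-3p (-0.35 and -0.98) and miR-543-3p (-0.45 and -1.86) had larger ratios in set 2, while miR-323-3p (-0.24 and -0.28) and miR-299-5p (-0.17 and -0.19) were level and miR-409-3p (-0.31 and -0.28) was just past that limit. The summed level of the cluster was 1257 and 1957 CPM in area 17 against 2115 and 3851 CPM in area 18. Both area 17 sums were below both area 18 sums. In the neighbouring cluster of miR-127 and its relatives 0 of 17 tested arms had high counts. By edgeR 0 arms of either cluster were called over all arms tested, and 2 arms of each had an unadjusted p under 0.05, all of them lower.

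In other families, the arms of high counts did not all have 1 direction in both sets. Of the 7 let-7 arms with high counts, 3 were higher in both sets, let-7b-5p, let-7i-5p (1.41 and 0.49) and let-7d-5p (1.25 and 0.21), while let-7g-5p was at 12272 CPM in area 17 against 7649 CPM in area 18 in set 1 and 6994 against 12312 CPM in set 2 with opposite ratios. In the miR-17 clusters 5 of 10 were higher in both sets (4 under all scalings), 0 were lower and 4 were level, with a median of 0.29. In the miR-15/16 family 3 of 7 were higher, among them miR-15b-5p (0.51 and 0.39), and 2 were lower. The miR-181 family had 3 of 7 lower (2 under all scalings) and 0 higher, and miR-181a-5p had ratios of 1.29 and -0.16. Of the 5 arms of the miR-30 family, miR-30a-3p was the one past 0.5 in both sets, and miR-30c-5p (0.53 and -1.50) and miR-30b-5p (0.00016 and -1.58) differed between sets. The 2 miR-26 arms and miR-34a-5p (-1.14 and 0.96) had opposite directions, and 0 of 6 miR-29 arms reached 100 CPM.

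**Figure D4:**
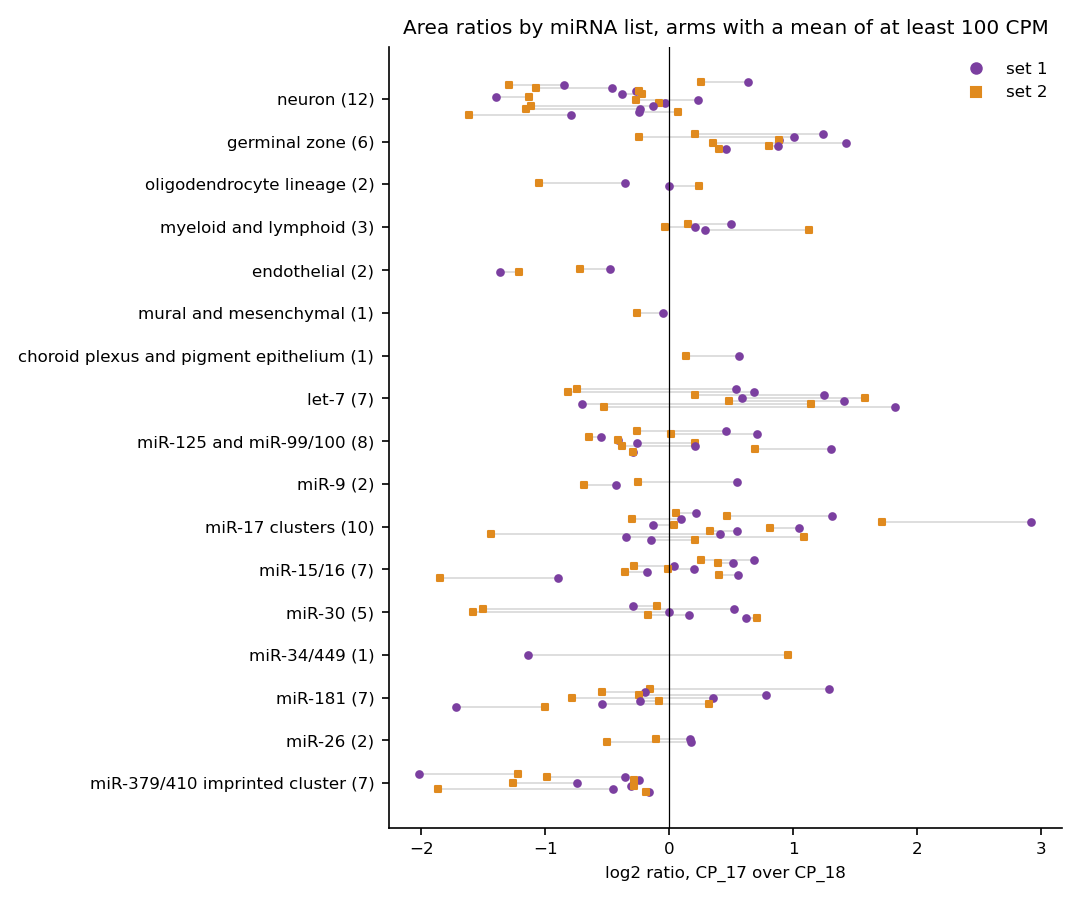
Log2 ratio of CP_17 over CP_18 in set 1 (purple circles) and set 2 (orange squares) for each arm that averaged 100 CPM or more, by list, with the number of such arms in brackets and a line joining both sets of an arm. All 7 arms of the miR-379/410 cluster lie left of 0 in both sets, 5 of 6 germinal zone arms lie right of 0, and the let-7 and miR-181 families spread to both sides.

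miRNAs that mark blood vessels, blood cells, glia and other tissues were read in the same libraries. The 2 endothelial arms, those of miR-126, summed to 2885 and 1547 CPM in area 17 against 4504 and 2876 CPM in area 18. The mural marker miR-143-3p, under 100 CPM, was at 49.7 CPM in area 17 against 119.6 CPM in area 18 in set 1 and 56.9 against 133 CPM in set 2 (-1.25 and -1.21), whereas the mural miR-145-5p was level, and miR-199a-3p had 0 counts in all 4 libraries. The 8 tested mural and mesenchymal arms summed to 1055 and 733 CPM in area 17 against 1174 and 917 CPM in area 18. The erythroid miR-451-5p had ratios of -1.22 and -1.04, and the 4 tested erythroid arms summed to 61.7 and 23.0 CPM in area 17 against 126 and 43.9 CPM in area 18. The summed endothelial, mural and erythroid lists were thus each lower in area 17 in both sets, on the side of the lower arms. Log2 ratios of the sums were -0.64 and -0.89, -0.15 and -0.32, and -1.03 and -0.93, in that order. The mural sum was within the level limit of 0.3 in set 1, and 0 erythroid arms had high counts. The part of these lists in the lower arms was not tested. The summed oligodendrocyte list and the liver and muscle list, given below, were lower in area 17 in both sets too, the latter at low levels. Over all 1139 tested arms the median fitted difference was -0.21. The 12 myeloid and lymphoid arms summed to 35384 and 17897 CPM in area 17 against 25219 and 16068 CPM in area 18, nearly all of it from miR-342-3p, which neurons also express. The myeloid miR-223-3p was at 23.0 CPM in area 17 against 43.2 CPM in area 18 in set 1 and 25.1 against 52.2 CPM in set 2. This was against the direction of its list, whose 12 arms had a median fitted difference of 0.435. In that list 1 arm had an unadjusted p under 0.05 by edgeR, and it was higher in area 17. miR-204-5p, abundant in pigment epithelium and choroid plexus, was at 7237 CPM in area 17 against 4894 CPM in area 18 in set 1 and 7021 against 6399 CPM in set 2, and the 3 tested arms of that list summed to 7252 and 7044 CPM in area 17 against 4946 and 6442 CPM in area 18. Nearly all of that sum was miR-204-5p, with a fitted difference of 0.39. The median over the 3 arms was -1.10, so the other arms of the list, at low levels, went the other way by the fit. Of the 4 oligodendrocyte arms, miR-338-3p had ratios of -0.36 and -1.05, miR-338-5p was level, and the list summed to 398 and 486 CPM in area 17 against 436 and 766 CPM in area 18. The 5 tested liver and muscle arms summed to no more than 93.8 CPM in a library. In these 7 lists edgeR called 0 arms, and 1 higher and 1 lower arm had an unadjusted p under 0.05.

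Both arms had high counts for 31 hairpins, and the proportion of 3p to 5p counts is free of the scaling. It was higher in area 17 by at least 0.5 on the log2 scale in both sets for 4 hairpins and lower for 3, and it stayed within 0.3 in both sets for 4. The 5p share of miR-93 was 88.6% and 79.3% in area 17 against 59.9% and 59.4% in area 18. The 5p share of miR-106b went the other way, at 68.4% and 77.7% against 80.8% and 88.3%. Like miR-106b, the hairpins of miR-140 (3p over 5p 1.07 and 0.93), miR-138 (0.61 and 1.37) and miR-361 (0.83 and 0.85) had more 3p in area 17. Like miR-93, those of miR-181b (-2.53 and -0.77) and miR-331 (-0.78 and -0.72) had less. Both arms had 1 direction in both sets for 10 of the 31 hairpins.

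Area differences in the germinal zones come from other libraries of the same 2 sets, so no library is shared with the CP comparison. Of the 16 arms higher in CP_17, 10 were also higher in area 17 in both sets of the ventricular zone (VZ) and 0 were lower in both, where of all 171 arms 49 were higher and 30 lower in both. Of the 18 lower arms, 10 were lower in both VZ sets and 0 higher in both. miR-92b-3p had 1.03 and 0.57 in VZ, and miR-376c-3p had -1.37 and -1.09. Unlike these, miR-93-5p had no single direction there (0.28 and -2.05). In the outer subventricular zone (OSVZ), 2 of the 16 higher arms were higher in both sets and 0 lower, and of the 18 lower arms 8 were lower and 3 higher in both sets. Of all 171 arms 31 were higher and 46 lower in both OSVZ sets.

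The difference between zones was tested in the same edgeR fit. Against VZ, the area difference in CP differed for 1 of 1139 arms (0.0878%), miR-652-3p, and against OSVZ for 0 (0.0%), where 66 (5.79%) and 34 (2.99%) had an unadjusted p under 0.05. DESeq2 called 5 arms against VZ and 0 against OSVZ (58 at an unadjusted p under 0.05). For miR-93-5p, CP minus VZ was 3.16 ± 0.88 (SE, adjusted p = 0.452) and CP minus OSVZ was 1.61 ± 0.82. For miR-137-3p, CP minus VZ was -0.26 ± 1.05. By this test no area difference of the 24 higher and lower arms plotted was shown to be particular to CP.

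**Figure D5:**
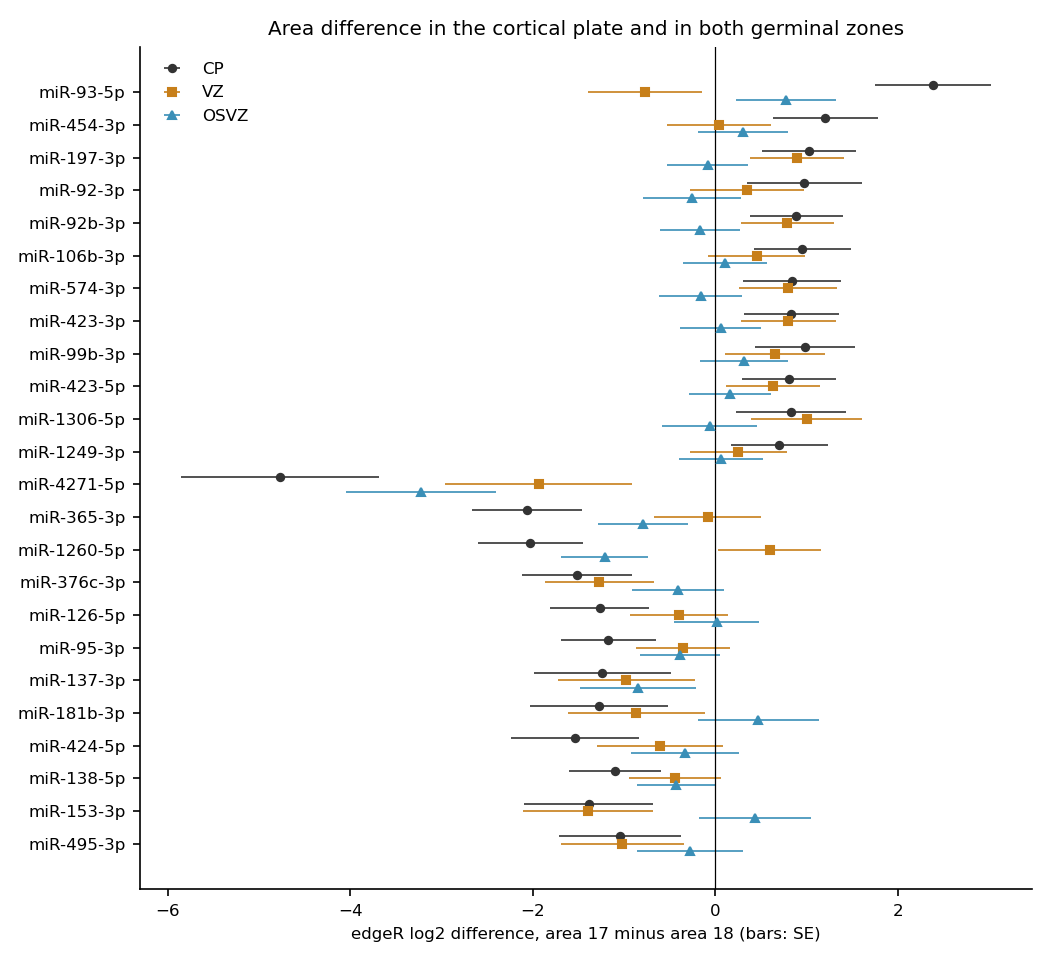
edgeR log2 difference between area 17 and area 18 with its SE in CP (black circles), VZ (orange squares) and OSVZ (blue triangles) for the 12 higher and 12 lower arms, which were chosen on the CP values. VZ values mostly lie on the side of the CP values and nearer to 0, with miR-93-5p and miR-1260-5p on the other side of 0, and OSVZ values lie around 0 for the higher arms.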

How the data were processed

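The authors deposited tables of whole-number read counts in which each library has a 5p and a 3p column, per the file headers. Aligner, genome build, miRNA annotation and the handling of multiply matching reads are not given in the sources used here. Arms of near-identical hairpins may therefore share reads. Per the labels' protocols, RNA was extracted from laser-cut pieces and made into size-selected SOLiD libraries. A table was tied to a set by its spelling of the region names and its list of regions, and 12 value columns with names that match no label were not used.

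The 828 names in both tables gave 1656 arms, of which filterByExpr by region kept 1139. edgeR 4.0.16 in R 4.3.3 (TMM, quasi-likelihood F test, region with the set as block, 6 residual degrees of freedom) was fitted to 14 libraries, with Benjamini-Hochberg adjustment over all tested arms. The design had foreseen 3 sets. For arms of high counts, counting error is small beside the spread between libraries. The code was tested on simulated data. Each set has its own embryonic day in the labels. As a check of the pairing, differences between sets correlated between CP_17 and CP_18 with r = 0.30 across arms, and over 0.1 for 20 of 21 pairs of regions (0.035 to 0.56).

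Named arms were up to 12 in each direction with at least 100 CPM ranked by the smaller of both ratios, up to 12 level arms by abundance, arms over 10000 CPM, the 5 arms of smallest p, up to 4 arms of a list by abundance and partner arms. Arms past the limits of 0.5 and other list members were added after their values were seen. Members, limits and lists were chosen with earlier results of these data known. The alternatives were other scalings, filters, pseudocounts and size limits, DESeq2 1.42.0, no block, CP libraries alone, all names, and leaving out each CP library.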

Additional observations from a re-analysis of the deposited data

Results flagged for a closer look

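The area difference of miR-652-3p was not the same in CP and VZ by the interaction test in edgeR (CP minus VZ 4.71 ± 0.91 SE, adjusted p = 0.0108). In VZ its log2 ratios of area 17 over area 18 were -3.67 and -2.84, while in CP they were -0.43 and 1.76, from counts of 2940 and 4126 in set 1 and 341 and 89 in set 2 (area 17 first). The call was lost without the replicate block (adjusted p = 0.933), without CP_17 replicate 2 (2.63, adjusted p = 1) and without CP_18 replicate 1 (adjusted p = 0.12), and over all settings its adjusted p ran from 6.15e-05 to 1.

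For 2 of the 24 arms named as higher or lower, the area ratio had the opposite sign in both sets of OSVZ. miR-181b-3p had -1.72 and -1.0026 in CP and 0.18 and 0.87 in OSVZ (CP minus OSVZ -1.75 ± 1.01 SE), and miR-153-3p had -0.79 and -1.62 in CP and 0.69 and 0.13 in OSVZ (-1.83 ± 0.94). By edgeR's interaction test neither difference passed (adjusted p = 1 and 1).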

How the results depend on the processing

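The 0 arms that edgeR called between the areas of CP became 3 without a filter on low counts (miR-205-5p, miR-4271-5p and miR-93-5p), 8 with DESeq2 and 18 with only the 4 CP libraries. They were 0 with DESeq2 size factors, library totals, TMM over the CP libraries, all names of either table and no replicate block (24 arms at an unadjusted p under 0.05). Leaving out 1 CP library gave 0 to 1, with miR-205-5p called without CP_17 replicate 1 or CP_18 replicate 1 and miR-4271-5p without CP_18 replicate 2. The lone library left in an area is then assumed to vary like the other groups. The 1 arm called between CP and VZ became 5 with DESeq2 and 0 without the replicate block, and 0 to 1 with single libraries left out. For CP against OSVZ the 0 became 0 to 1 with single libraries left out (miR-205-5p without CP_17 replicate 1 or CP_18 replicate 1).

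The 16 higher, 18 lower and 36 level arms became 34, 57 and 41 at a mean of 10 CPM or more, 3, 5 and 14 at 1000 CPM or more, and 61, 52 and 58 with any size for a direction and a level limit of 0.5. With library totals 23 arms were level, of which 13 were among the 36. With 1 set alone, 41 to 47 arms were higher, 32 to 39 lower and 65 level, a check chosen after seeing the data, as was the centring on the median. Other settings stayed within 1.5 times. Of 192 recomputed mean ratios of 48 named arms, 167 moved by less than the SD between sets and 25 by more. Having 2 libraries an area limits every value here.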

Other observations

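Among arms under 100 CPM, some showed wide area ratios in both sets. Area 17 comes first in each pair. miR-1307-3p had 98.7 and 20.8 CPM in set 1 and 97.1 and 19.03 CPM in set 2, and miR-296-3p, a miRNA of an imprinted locus near GNAS, had 43.5 and 7.31 CPM in set 1 and 41.7 and 3.05 CPM in set 2, both higher in area 17 in each set. The passenger arm miR-92b-5p was higher too, with 15.9 and 6.42 CPM in set 1 and 21.8 and 4.7 CPM in set 2. On the lower side, miR-376a-3p, of the same cluster as miR-376c, had 29.2 and 105 CPM in set 1 and 45.1 and 163 CPM in set 2, with log2 ratios of -1.81 and -1.83. From the neighbouring cluster of miR-127, miR-433-5p had 1.15 and 97.4 CPM in set 1 and 9.05 and 51.9 CPM in set 2, and miR-136-3p had 0 and 22 counts in set 1 and 2 and 294 counts in set 2. By edgeR over all libraries none of these 6 arms passed. miR-1307-3p, miR-296-3p, miR-376a-3p, miR-433-5p and miR-136-3p were called with only the CP libraries, and miR-1307-3p, miR-296-3p and miR-92b-5p with DESeq2. These arms were chosen after their values were seen.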
